A study of Mus musculus with 4 samples.

Results

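The genes described here lie in a 10 Mb stretch of the mouse X chromosome, between 130 and 140 Mb of the genome build mm9, on a chromosome that is largely silenced in female cells. They were taken from the table of gene expression by their start position. Rpl36a, Trap1a, Ngfrap1, Bhlhb9 and the genes with symbols starting with Armcx, Gprasp, Bex or Tceal were left out. This leaves 86 of the 107 genes of the stretch. The whole table held 22691 genes, 952 of them on X. The cells were fibroblasts grown from female E13.5 embryos, with 2 libraries of polyadenylated RNA from Smchd1 +/+ cells (WT) and 2 from Smchd1 MD1/MD1 cells (MD1). All 4 libraries carried Xist deltaA on 1 X chromosome (genotype Xist deltaA/+) and came from C57BL6/J (B6) mothers and sires that were F1 hybrids of JF1 and C57BL6/J. The labels do not say whether the replicates were separate fetuses, so p-values measure only the spread between these libraries, which may be technical.

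In female mammals 1 X chromosome per cell is silenced early in development, after Xist RNA spreads over it from the X inactivation centre. Silencing is then kept up by chromatin marks, DNA methylation of promoters and proteins such as SmcHD1, a noncanonical SMC protein enriched on the inactive X. The deltaA mutation removes the repeat of Xist that is needed for silencing, so the maternal B6 X stays active in every cell of both groups, and silencing falls on the X from the sire, JF1 at informative sites. Reads with JF1 variants therefore report on the inactive X, and their percentage of a gene's allele-specific reads is called the paternal share.

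Smchd1 itself, checked first, had a mean FPKM (fragments per kilobase of transcript, scaled to sequencing depth) of 14.7 in WT and 1.94 in MD1. Xist was 99.8% to 99.9% paternal in all 4 libraries. Allele-specific reads on X totalled 521768 to 806626 per library. The fibroblast list (10 genes such as Vim and Col1a1) summed to 5696 FPKM in WT and 4644 in MD1. The lists of 6 other cell types summed to between 2.02 and 78.9 FPKM in WT and between 1.84 and 59.8 in MD1. The muscle list (Des, Myog, Actc1 and Myh3) was the highest of these in WT, at 78.9 FPKM against 19.4 in MD1, and the blood and immune list had 34.5 and 27.1.

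Of the 86 genes, 45 were informative, meaning that each library had a share for the gene and the mean number of allele-specific reads was at least 20. Among the other 41, 24 had no allele-specific read in any library and 17 had too few. Those 24 include Timm8a1, Glra4, Rab9b, Esx1, Prame, Vsig1 and Gucy2f, and the 17 include Btk, Nox1, Xkrx, Taf7l, Nxf2, Nxf3, Il1rapl2, Serpina7, Cldn2, Irs4 and Rgag1. The first informative gene, Pcdh19, starts at 130117400 and the last, Pak3, at 139953134. The nearest informative genes outside are Diap2, with a mean MD1 share of 4.65%, and Capn6, with 0%.

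In WT hardly any paternal reads came from the stretch, and in MD1 it became a patchwork. Averaged over the 45 genes, the paternal share was 0.327% and 0.239% in the 2 WT libraries and 13.7% and 12.5% in the 2 MD1 libraries. The group means were 0.283% ± 0.0627 in WT and 13.1% ± 0.808 in MD1 (SD, n = 2), a difference of 12.8 points. The gap exceeded the spread within each group. By an exact permutation test (two-sided) p was 0.333, and no smaller value is possible with 2 libraries a group.

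By edgeR's quasi-likelihood test, 32 of the 45 genes rose in MD1, 0 fell and 13 did not pass at an FDR of 0.05. Over all 391 informative X genes 74.4% rose and 0.256% fell, so the frequency of rises in the stretch (71.1%) was near the background. The lowest MD1 library exceeded the highest WT library in 31 of the 45 genes, against 77.5% over all informative X genes. The reverse held in 0 of the 45, against 0.767%. The median change over the 45 genes, those without a call included, was 2.08 points, beside 11.4 points over all informative X genes. Over the 32 genes that rose it was 16.3 points, beside 23.4 points over the genes that rose on all of X. A mean MD1 share of 10% or more was reached by 19 genes, or 42.2%, where 54.5% of all informative X genes did so. In 24 genes the MD1 share was under 5% (37.6% over all informative X genes), and 11 of these 24 still rose in the test, beside 54 of 147 over all informative X genes.

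**Figure D1:**
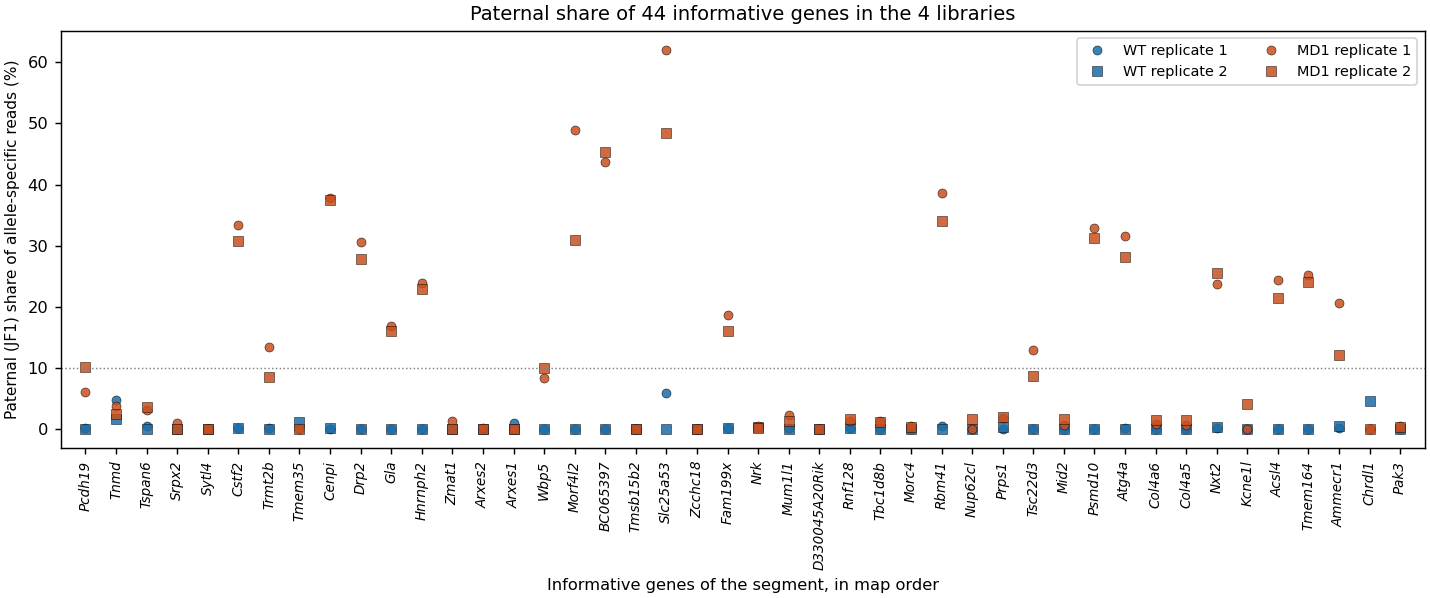
Paternal share (y axis, % of allele-specific reads) of 44 informative genes in map order (x axis), with 1 point per library (blue WT, orange MD1, circles replicate 1, squares replicate 2) and a dotted line at 10%. WT points stay under 6%, while MD1 points alternate between stretches near 0 and genes as high as 62.0%.

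Along the map, genes on the 2 sides of the 10% line alternated, in 11 runs under it and 10 runs at or above it. Neighbouring informative genes differed in MD1 share by a median of 9.02 points over 44 steps. This was near the median of 8.53 points over 390 such steps on all of X. The same gene differed between the 2 MD1 libraries by a median of 1.06 points. That median covers all 45 genes, 24 of them under 5% in MD1 and 7 with equal shares in both libraries. Gaps reached 17.9 points, at Morf4l2. The longest run under 10% held 6 genes, from the kinase gene Nrk to the ATPase gene Morc4 (135448969 to 136406193), with shares of 0% to 1.76%. It ended directly at Rbm41 with 36.3%. The longest run at or above 10% held 4 genes, Cenpi, Drp2, Gla and Hnrnph2 (130842702 to 131141593), with shares of 16.5% to 37.7%.

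The upstream DNA of a few of these genes is shown here because its CpG content was set beside the shares. CpG dinucleotides are the sites of DNA methylation, a mark that promoters on the inactive X are known to carry. The letters come from RefSeq promoters of the build GRCm38.p6 and are read 5′ to 3′ on the gene's own strand. Only bases outside annotated GENCODE M21 exons are printed, and capitals mark each CG. The pair of genes that share a start region with high MD1 shares is given first, then Cenpi with a high share, then 4 genes with a mean MD1 share under 2%. The bases shown for Psmd10 lie within the RefSeq span of Atg4a, which has a further start upstream.
Psmd10 and Atg4a, bases between their starts, chrX:140956729-140956906, minus strand: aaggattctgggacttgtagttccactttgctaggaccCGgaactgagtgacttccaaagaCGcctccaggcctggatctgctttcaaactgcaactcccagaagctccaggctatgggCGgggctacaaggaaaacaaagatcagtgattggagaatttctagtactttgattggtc
Cenpi, chrX:134307834-134308083, plus strand: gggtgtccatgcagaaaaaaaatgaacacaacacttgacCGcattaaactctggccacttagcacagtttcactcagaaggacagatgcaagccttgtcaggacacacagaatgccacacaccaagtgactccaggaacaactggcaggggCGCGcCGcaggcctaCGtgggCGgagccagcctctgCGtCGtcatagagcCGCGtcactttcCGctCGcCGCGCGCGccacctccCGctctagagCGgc
Col4a5, chrX:141475169-141475369, plus strand: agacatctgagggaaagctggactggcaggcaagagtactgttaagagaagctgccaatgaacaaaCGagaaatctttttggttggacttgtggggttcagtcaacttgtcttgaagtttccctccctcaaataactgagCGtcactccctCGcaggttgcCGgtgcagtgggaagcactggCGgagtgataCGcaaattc
Col4a6, chrX:141474096-141474326, minus strand: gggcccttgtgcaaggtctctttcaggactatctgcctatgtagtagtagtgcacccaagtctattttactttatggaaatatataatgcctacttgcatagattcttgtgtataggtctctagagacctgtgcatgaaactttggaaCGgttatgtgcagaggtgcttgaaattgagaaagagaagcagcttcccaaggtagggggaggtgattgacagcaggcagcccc
Morc4, chrX:139871693-139871904, minus strand: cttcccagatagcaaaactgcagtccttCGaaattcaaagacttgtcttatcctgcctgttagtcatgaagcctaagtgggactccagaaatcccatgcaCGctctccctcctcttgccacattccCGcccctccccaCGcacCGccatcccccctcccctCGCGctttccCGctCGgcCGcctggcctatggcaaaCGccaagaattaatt
Prps1, chrX:140456353-140456602, plus strand: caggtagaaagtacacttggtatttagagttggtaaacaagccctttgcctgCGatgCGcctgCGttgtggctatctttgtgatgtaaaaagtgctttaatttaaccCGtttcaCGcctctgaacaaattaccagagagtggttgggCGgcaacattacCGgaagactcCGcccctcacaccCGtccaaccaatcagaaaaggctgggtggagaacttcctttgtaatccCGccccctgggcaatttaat
The printed bases hold 3, 18, 6, 1, 11 and 10 CG in the order shown, which can be fewer than in the full 250 bases counted next. High and low numbers thus occur on both sides of the 10% line.

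Of the 45 genes, 41 could be matched to a promoter by present or older symbol. CG was counted in the 250 bases before the start, taking the highest number where RefSeq lists several starts. CG reads the same on both strands, and 92.1% of the 32851 RefSeq promoters hold at least 1 in these bases. The 17 matched genes at 10% or more in MD1 had a median of 12 CG (3 to 42), and the 24 under 10% had a median of 10 (2 to 24). At least 10 CG were present in 11 of the 17 and in 15 of the 24. They were present in 37.8% of all RefSeq promoters, where each start is counted singly, an unlike measure. With the highest start per gene in both, the median was 12 CG over the 41 genes and 14 over 296 other informative X genes. Across the 41 genes Spearman's rho between CG number and MD1 share was 0.12, and it was 0.18 across 296 other informative X genes. These genes share the same libraries.

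**Figure D2:**
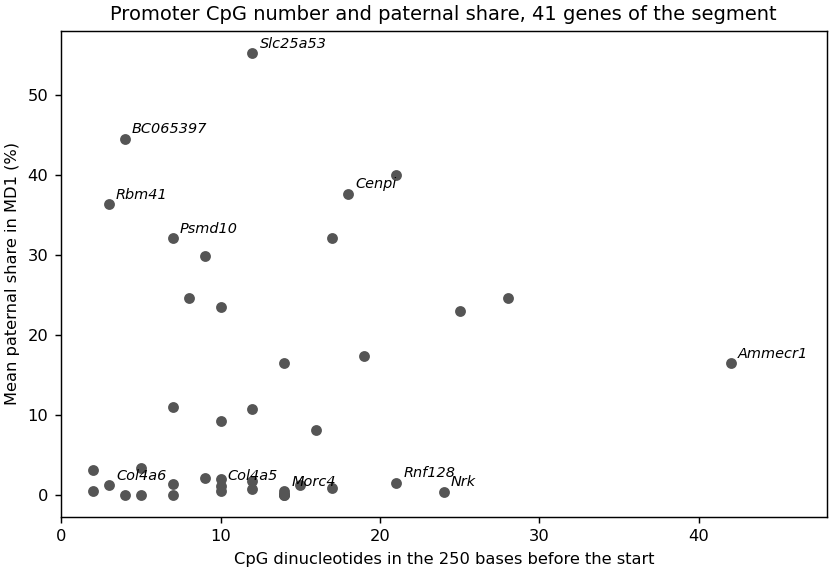
Number of CG in the 250 bases before the start (x axis) against the mean MD1 paternal share in % (y axis) for 41 genes, 1 point per gene. Ammecr1 with 42 CG has 16.4%, Rbm41 with 3 CG has 36.3% and Nrk with 24 CG has 0.363%.

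Genes of RNA handling, the nucleus and transcription held several of the high shares. Of 12 informative genes of this list 9 rose (75%, near the 74.4% over all informative X genes), and the median MD1 share over the list was 17.2%, beside 13.03% over all informative X genes. Cenpi encodes a centromere protein of the kinetochore. Its shares were 0% and 0.178% in the WT libraries, and 37.8% and 37.5% in the MD1 libraries (adjusted p = 6.1e-55, edgeR). The groups were far apart and the MD1 libraries nearly equal.

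Cstf2 encodes a subunit of the cleavage stimulation factor, which helps to form mRNA 3′ ends. It had 0.166% and 0.124% in the WT libraries against 33.4% and 30.8% in the MD1 libraries (adjusted p = 6.51e-64, edgeR). Rbm41, an RNA-binding protein gene, had 0.588% and 0% across WT, then 38.6% and 34.1% across MD1 (adjusted p = 8.36e-39, edgeR). For both genes the WT and MD1 libraries did not overlap.

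Morf4l2, a subunit gene of the NuA4 histone acetyltransferase complex, had 0.0688% and 0.0478% in WT. In MD1 it had 48.9% and 30.9% (adjusted p = 7.26e-102, edgeR). The MD1 libraries differed by 17.9 points, the widest gap between them in the stretch. MD1 replicate 1 held only 90 allele-specific reads of this gene, against 4183 to 6243 in the other 3 libraries, so its level rests mainly on replicate 2. With reads pooled, the MD1 share was 31.2%.

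Hnrnph2, a splicing regulator, rose to 23.4% ± 0.752. Its 1365 WT reads held 0 paternal ones, for an upper limit of 0.22%. Nxt2, an mRNA export cofactor, rose from 0.286% ± 0.199 to 24.6% ± 1.2 (SD, n = 2). Lower levels were reached by the mitochondrial RNA methyltransferase gene Trmt2b, with 13.4% and 8.5% in MD1. Tsc22d3, which encodes the glucocorticoid-induced leucine zipper protein GILZ, had 12.9% and 8.64%. Both rose in edgeR, with adjusted p of 4.68e-24 and 4.97e-16.

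Morc4 stayed near 0, with 0% and 0.0906% in WT and 0.501% and 0.31% in MD1. Its libraries did not overlap, and the adjusted p was 0.0285 in edgeR, but 0.05025 with DESeq2. The call was also lost without WT replicate 1 or without either MD1 replicate, with an adjusted p of up to 0.263. Zmat1, Zcchc18 and Nup62cl did not pass. They had 0% to 1.72% in every library, on 86 to 247 MD1 reads.

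All 6 informative genes of metabolism, lysosome, mitochondria and protein turnover rose, beside 74.4% over all informative X genes, and this difference was not tested. Slc25a53, of the mitochondrial carrier family, had the highest MD1 share of the stretch. It had 5.88% and 0% in the WT libraries against 62% and 48.4% in the MD1 libraries (adjusted p = 4.93e-09, edgeR), on 34 to 95 reads per library. The MD1 libraries differed widely but both lay far above WT.

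Psmd10 encodes gankyrin, a chaperone of proteasome assembly. It had 0 paternal of 453 WT reads, and 32.8% and 31.3% in MD1 (adjusted p = 9.33e-28, edgeR). Atg4a, a protease of autophagy, had 0.194% and 0% across WT, then 31.6% and 28.2% across MD1 (adjusted p = 4.94e-34, edgeR). The libraries of both genes separated by group.

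Acsl4, an acyl-CoA synthetase that prefers arachidonic acid, rose from 0.0617% ± 0.0387 to 22.9% ± 2.15. Gla, the lysosomal alpha-galactosidase whose loss causes Fabry disease, rose from 0.0297% ± 0.0419 to 16.5% ± 0.66 (SD, n = 2). The adjusted p was 1.8e-87 and 5.82e-61 in edgeR. Prps1, which makes the nucleotide precursor PRPP, rose far less, from 0% and 0.274% in WT to 1.88% and 2.06% in MD1. Its adjusted p was 0.00389 in edgeR and 0.0807 without MD1 replicate 2.

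Matrix, membrane and junction genes were split between high and near-silent levels, with a median MD1 share of 2.28%. Of 8 informative genes 6 rose, or 75%, near the 74.4% over all informative X genes. Tmem164, a membrane protein gene, rose from 0.0229% ± 0.0324 to 24.7% ± 0.724 (SD, n = 2). Drp2, a dystrophin-related protein gene, had 0 paternal of 38 WT reads, and 30.6% and 27.8% in MD1. Drp2 was shallow, with 15 to 36 reads per library. Its adjusted p was 0.00777 in edgeR, 0.05416 with DESeq2, and 0.0897 and 0.0509 without WT replicate 1 or 2.

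Col4a5 and Col4a6 encode chains of the type IV collagen of basement membranes, and loss of the former causes Alport syndrome. Col4a5 was among the deepest genes of the stretch, with 2644 to 5347 reads per library. Its shares were 0.0905% and 0.0748% in the WT libraries, and 0.756% and 1.43% in the MD1 libraries (adjusted p = 6.27e-12, edgeR). Col4a6 had 0 paternal of 1708 WT reads, and 0.889% and 1.49% in MD1 (adjusted p = 0.000477, edgeR, and 0.0789 without MD1 replicate 2). Both MD1 libraries were above WT in each gene, at levels near 1%.

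Tspan6, a tetraspanin gene, rose from 0.281% ± 0.398 to 3.36% ± 0.291 (SD, n = 2). Tmem35 and Chrdl1, an inhibitor of bone morphogenetic proteins, had 0 paternal reads in MD1 and did not pass. Their 83 and 28 MD1 reads allow shares of up to 3.61% and 10.7%.

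Signalling and trafficking genes had the lowest median MD1 share of the 4 lists, 0.85%. Here too 6 of 8 rose, near the 74.4% of all informative X genes. Ammecr1 was the exception, with 0.125% and 0.47% in WT and 20.7% and 12.2% in MD1. Pak3, a p21-activated kinase, had 0% in both WT libraries and 0.52% and 0.316% in MD1, or 9 of 2104 reads. Its adjusted p was 0.00544 in edgeR and 0.122 without MD1 replicate 1.

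Mid2 and Rnf128, both E3 ubiquitin ligases, rose to 1.19% ± 0.775 and 1.5% ± 0.339, and Tbc1d8b, of a family of Rab GTPase-activating proteins, to 1.28% ± 0.0906 (SD, n = 2). Srpx2, a secreted sushi-repeat protein gene, passed on 4 paternal reads of MD1 replicate 1, with 0% in the other 3 libraries. Its adjusted p of 0.0407 in edgeR became 0.0591 to 0.161 without a WT library and 1 without MD1 replicate 1. It was also not called with DESeq2 (0.243) or with a minimum of 50 reads (0.0778). Nrk, a kinase of the germinal centre kinase family, had 0.271% and 0.284% in the WT libraries against 0.548% and 0.178% in the MD1 libraries, which overlap (adjusted p = 0.943, edgeR). Sytl4, a Rab27 effector, had 0 paternal reads in all 4 libraries, and its 110 MD1 reads allow up to 2.73%.

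Btk, the tyrosine kinase of B-cell receptor signalling, was too shallow for the test. It had 16 WT reads with no share given and 7 of 14 and 8 of 18 paternal reads in MD1, or 50% and 44.4%. Its FPKM was 0.243 in WT and 0.361 in MD1. In the blood and immune list, 4 of 9 genes were higher in MD1 and 5 lower. Its gene Ptprc had 0.47 FPKM in WT and 0.352 in MD1, and Itgam had 0.47 and 1.39. Their part in the level of Btk was not tested.

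The remaining 11 informative genes belong to none of the 4 lists, and 5 of them rose. This is 45.5%, beside 74.4% over all informative X genes, and the difference was not tested. BC065397 overlaps the start of Morf4l2 on the other strand and had 0 paternal of 78 WT reads, and 43.8% and 45.3% in MD1 (adjusted p = 1.05e-07, edgeR). Fam199x rose from 0.115% ± 0.00989 to 17.3% ± 1.79. Wbp5, now named Tceal9, was the deepest gene of the stretch, with 6424 to 8485 reads per library, and rose from 0.0353% ± 0.0161 to 9.23% ± 1.18. It was kept because families were left out by the symbol in the table. Without it, 31 genes of the stretch rose. Pcdh19, a cell-adhesion protocadherin, rose from 0.0968% ± 0.0594 to 8.07% ± 2.91 (SD, n = 2).

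Mum1l1 rose to 1.76% ± 0.712 (SD, n = 2). Tnmd, which encodes the tendon protein tenomodulin, had the highest mean WT share of the stretch, 3.24%. It had 4.84% and 1.65% across WT, then 3.76% and 2.48% across MD1, which overlap (adjusted p = 0.619, edgeR). The adipocyte gene Arxes2 had 0% in WT and 0.23% and 0% in MD1, on 834 MD1 reads. Only Tnmd, Slc25a53 and Chrdl1 had a mean WT share of 1% or more, which is 3 of 45 genes, against 6.91% of all informative X genes. For Tnmd 27 of 678 WT reads were paternal. The WT share of Slc25a53 rests on 2 of 34 reads in replicate 1, and that of Chrdl1 on 2 of 43 reads in replicate 2.

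Depth limited what could be seen at the lowest genes. At 100 reads or more on average, 29 of 33 genes rose, and below that depth 3 of 12 did. Rises were found in 81.4% and 37.3% of genes of the rest of X at the same depths. A change at the shallow genes without a call may have been below what their reads can show.

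Start sites that face each other gave a closer look at position. This comparison was chosen after the values were seen. In 4 pairs of the stretch an informative minus-strand gene and an informative plus-strand gene start within 2000 bases of each other. Psmd10 and Atg4a start 206 bases apart in mm9 and had 32.1% ± 1.04 and 29.9% ± 2.4 in MD1. Gla and Hnrnph2, 281 bases apart, had 16.5% ± 0.66 and 23.4% ± 0.752. Col4a6 and Col4a5, 1343 bases apart, had 1.19% ± 0.427 and 1.09% ± 0.479 (SD, n = 2).

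Morf4l2 and BC065397 overlap at their starts. They had 39.9% ± 12.7 and 44.5% ± 1.12 (SD, n = 2). In MD1 replicate 2, where Morf4l2 is deep, this pair had 30.9% and 45.3%, a gap of 14.4 points, and with reads pooled it had 31.2% and 44.7%. The 4 pairs differed in MD1 share by a median of 3.41 points (5.01 in MD1 replicate 2), and 10 such pairs elsewhere on X by 6.71 points. All 390 steps between neighbouring informative X genes had a median of 8.53 points. Opposite cases exist. Atg4a at 29.9% and Col4a6 at 1.19% meet tail to tail at 137598813 and 137599946. Zcchc18 lies inside the span of Slc25a53 on the other strand and had 0 of 135 paternal reads in MD1, which allows up to 2.22%, where Slc25a53 had 55.2%. Whether reads were counted by strand is not given in the sources used here, so overlapping genes are uncertain.

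The stretch gained less paternal expression than the rest of X in these libraries. The mean share of the other 346 informative genes exceeded that of the stretch by 0.447 and 0.476 points in the WT libraries and by 5.10 and 5.83 points in the MD1 libraries. The gap was thus 5.001 points wider in MD1 than in WT, and the same exact permutation test again gave its lower limit of 0.333. With reads pooled over genes, so that abundant genes weigh more, the gap widened by 15.6 points.

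**Figure D3:**
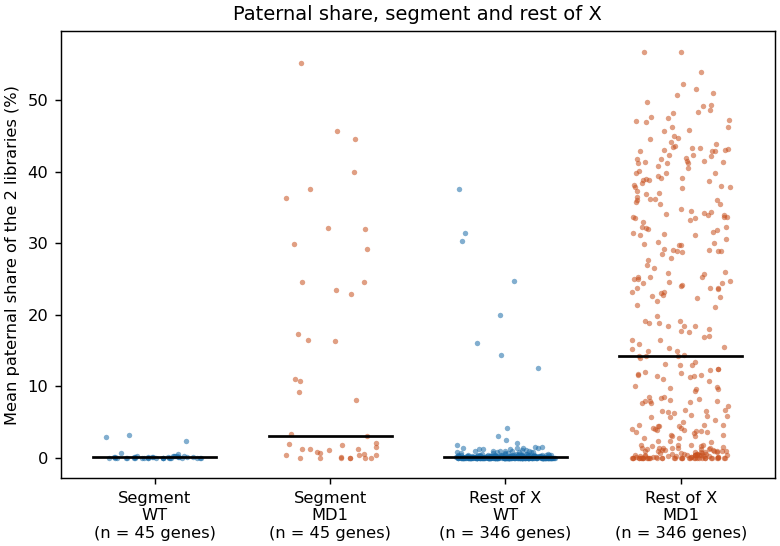
Mean paternal share of the 2 libraries of a group in % (y axis) for each informative gene of the stretch (45) and of the rest of X (346), with 1 point per gene and a bar at the median. In MD1 the medians are 3.12% and 14.2%, and in WT 0.0583% and 0.0476%.

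The gene families left out of the stretch had a mean share of 7.55% and 5.56% in the MD1 libraries over 12 informative genes. Of these 8 rose (66.7%), beside 74.4% over all informative X genes. Armcx5 had 33.5% and Gprasp1 13.03% as group means. The next 10 Mb had a mean share of 10.4% and 9.45% in the MD1 libraries over 28 informative genes, 16 of which rose (57.1%). In the WT libraries that mean was 1.83% and 1.89%. With reads pooled over genes the order was reversed. The next 10 Mb then had 19.4% and 16.5% in the MD1 libraries, and the stretch 13.8% and 15.8%.

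Total RNA of the stretch was about as often higher as lower in MD1. These FPKM values are group means by the authors, with no value per library, so no test was possible and ratios describe these means only. In bulk samples, fewer cells of a type and less RNA per cell cannot be told apart. Of the 86 genes, 39 had a mean FPKM of 1 or more and a value above 0 in both groups, and the other 47 are not described by ratio. Of the 39, 20 were higher and 19 lower (51.3% higher), beside 67.6% higher among all 398 X genes and 50.1% among autosomal genes of that level. The median log2 ratio of (FPKM + 1), MD1 over WT, was 0.0088, beside 0.24 for 359 genes of the rest of X and 0.0012 for 11001 autosomal genes.

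The 4 highest ratios were at Cenpi (5.62 to 16.2 FPKM, log2 ratio 1.38), Timm8a1 (3 to 7.97, 1.17), Cstf2 (14 to 25, 0.79) and Psmd10 (15.7 to 25.7, 0.68). Timm8a1 encodes an import factor of mitochondria and had no allele-specific read. The 4 lowest were at Col4a6 (4.26 to 1.03 FPKM, log2 ratio -1.37), Col4a5 (35.6 to 16.7, -1.05), Nrk (4.72 to 2.11, -0.88) and the thymosin beta locus Tmsb15b2,Tmsb15l (3.86 to 1.81, -0.79). A ratio of 2-fold or more was seen in 2 genes upwards (4.77% of X and 1.26% of autosomal genes did so) and in 2 downwards (2.26% and 2.83%). Per library, a scaling added after the data were seen, Col4a6 had 61.2 and 263.5 allele-specific reads per 100000 of the library in WT, and 31.9 and 33.2 in MD1. Its WT level thus rests mainly on replicate 2, and the MD1 mean was 20.1% of WT with both WT libraries but 53.3% of WT replicate 1 alone. For Col4a5 these values were 38.8% and 43.9%. By group mean FPKM, MD1 was 24.2% of WT for Col4a6 and 46.8% for Col4a5. Marker lists of cell types moved as well. All 4 muscle genes were lower in MD1. In the fibroblast list 6 of 10 genes were higher and 4 lower. Its collagens Col1a1, Col1a2 and Col3a1 had log2 ratios of -0.64, -0.83 and -1.25, while Pdgfra and Fbln1 had 0.82 and 0.64. The neural list summed to 34.1 FPKM in WT and 59.8 in MD1 (2 of 4 genes higher). The part of these cell types in the ratios of the stretch was not tested.

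Genes with a high paternal share in MD1 tended to have a higher total. Of 16 genes at 10% or more with a ratio, 13 were higher and the median log2 ratio was 0.25. Of 21 genes under 10%, 6 were higher and the median was -0.33. Spearman's rho between MD1 share and log2 ratio was 0.75 over these 37 genes, and 0.66 over 357 informative X genes. Both measures come from the same 4 libraries, and paternal reads are part of the total. These correlations describe genes, which are not independent replicates.

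**Figure D4:**
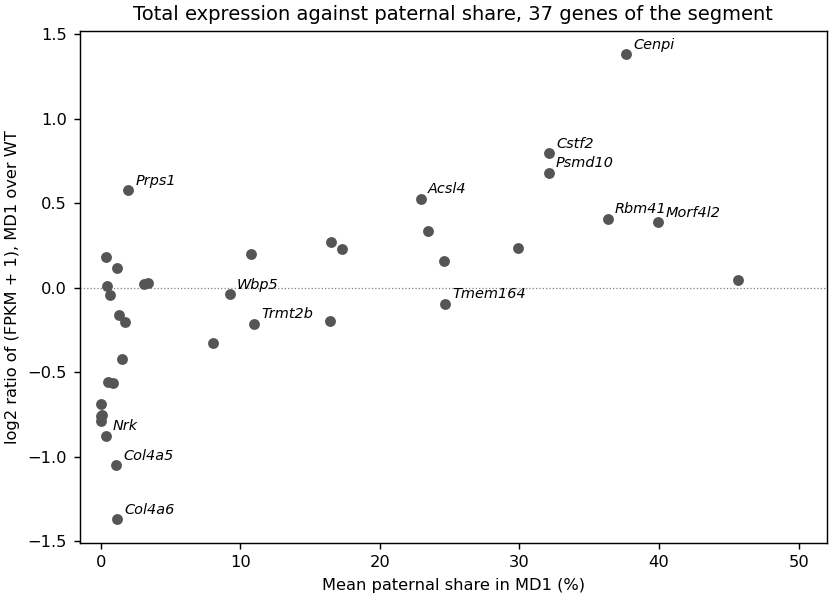
Mean MD1 paternal share in % (x axis) against the log2 ratio of (FPKM + 1), MD1 over WT (y axis), for 37 genes of the stretch, 1 point per gene, with a dotted line at 0. Cenpi is highest at 1.38, Prps1 has 0.58 at a share of 1.97%, and Col4a5 and Col4a6 lie at the bottom near a share of 1%.

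The totals were also split by allele, taking the paternal share to hold for all RNA of the gene. For Cenpi the MD1 total was 289% of the WT total, made of 180% maternal B6 and 109% paternal JF1 RNA. Cstf2 and Psmd10 had 121% and 111% from B6 and 57.3% and 52.6% from JF1. Rbm41 and Morf4l2 had 90.1% and 78.6% from B6 and 51.4% and 52.2% from JF1. The Morf4l2 split uses its mean share of 39.9%, in which MD1 replicate 1 with 90 reads counts as much as replicate 2. With its pooled share of 31.2% the JF1 part would be smaller and the B6 part larger.

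Prps1 had 149% from B6 and 3.002% from JF1. In Col4a5 and Col4a6 the B6 part was 46.3% and 23.9% of the WT total, with 0.513% and 0.288% from JF1, and the value of Col4a6 again rests on the high WT replicate 2. For the 16 genes at 10% or more the B6 part alone had a median log2 ratio of -0.078, with 7 higher. For the 21 under 10% it was -0.44, with 5 higher.

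**Figure D5:**
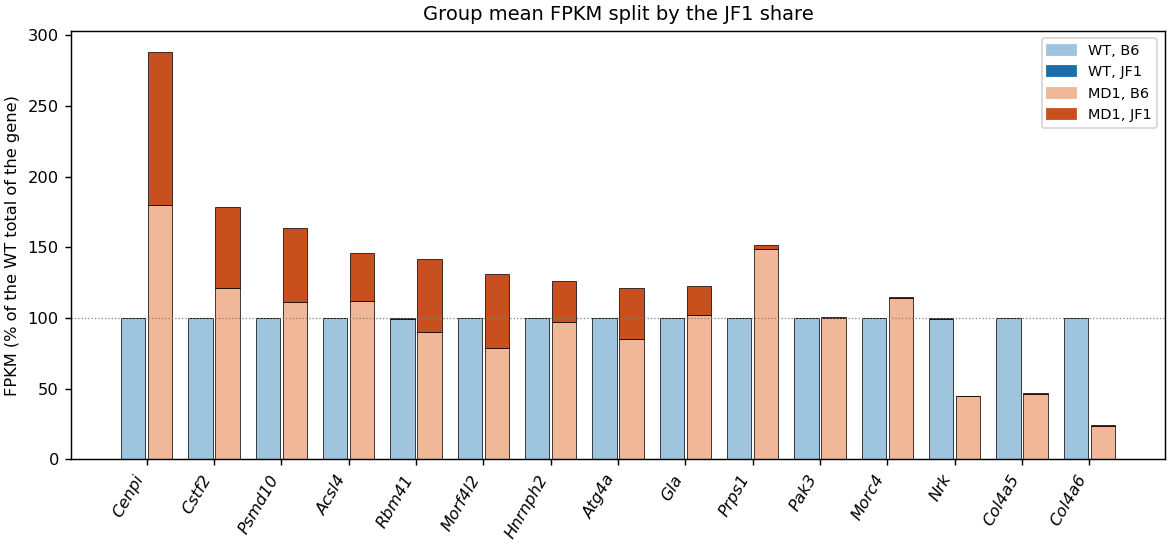
Group mean FPKM as % of the gene's WT total (y axis) for 15 genes of the stretch, WT in blue and MD1 in orange, split into a B6 part (pale) and a JF1 part (dark) by the mean share. The JF1 part is large from Cenpi to Gla and hardly visible from Prps1 to Col4a6. For Morf4l2 the mean share gives the shallow MD1 replicate 1 the same weight as replicate 2.

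In a list of 18 factors known to act in X silencing, 13 had a higher and 5 a lower FPKM in MD1. At a mean FPKM of 1 or more, 50.1% of autosomal and 67.6% of X genes were higher. The 5 lower ones were Smchd1, Ring1 (6.28 FPKM in WT and 4.3 in MD1), Pcgf3, Pcgf5 and Cbx7. Cbx7 had 0.384 and 0.287 FPKM, below that minimum. Among the higher ones, those with the largest log2 ratios are given next. Cbx2 had the largest, with 2.8 FPKM in WT and 5.76 in MD1. Dnmt1, the maintenance DNA methyltransferase, had 25.7 and 43.4 FPKM. Ezh2, the Polycomb histone methyltransferase, had 20.1 and 33 FPKM. These are group means without a test.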

How the data were processed

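RNA-seq of 4 libraries, 2 WT and 2 MD1, was analysed from 1 table. Per the labels' protocols, polyadenylated RNA was made into libraries with a kit that keeps strand. Cufflinks 2.2.1, Cuffdiff and mm9 are named in the submitters' processing notes, without saying what each did. For the aligner, the JF1 variants, the annotation and strand use in counting, the sources used here give nothing. The deposited table holds counts of allele-specific reads, by gene and library. The JF1 share was deposited as a fraction, given from 10 reads on. JF1 counts are share times reads, a whole number (tolerance 0.001) in 100% of cases. Total expression was deposited as FPKM, 1 mean per group by the authors. Table starts count from 0 (9511 of 21379 gene lengths equalled RefSeq with the start moved up by 1, 620 as given), so positions are printed 1-based in mm9. Since mm9 is a B6 genome, JF1 reads may align less well, which would lower the share in both groups.

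The 391 informative X genes (Xist left out) were fitted together with edgeR 4.0.16 (R 4.3.3): JF1 and B6 counts, with terms for library, allele and allele by genotype, the last of these tested by the quasi-likelihood F-test, two-sided, Benjamini-Hochberg over all 391, FDR 0.05. Library sizes were the allele-specific totals. With 2 libraries a group, the spread of a gene is estimated with the help of all 391 genes. Very small p-values thus lean on that shared estimate. The fit was tested on simulated data. DESeq2 1.42.0 (likelihood ratio test) was an alternative. Limits for 0 counts use 3 counts, and intervals are Wilson 95%. Both cover counting error only, since reads are not independent molecules.

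The genes, lists and tests were chosen with earlier results of these data known. Described one by one were Btk, Morf4l2, Slc25a53 and Col4a5, the 10 largest rises, the 8 lowest MD1 shares at 200 or more reads, WT shares of 1% or more, the 3 deepest genes whose call changes without 1 library, and the 4 highest and lowest FPKM ratios. Of the 10 largest rises, 1 gene is not reported here by name, but counts and summaries include it. Other genes named fill the role lists and were chosen after their values were seen.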

Additional observations from a re-analysis of the deposited data

Results flagged for a closer look

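Btk lay outside the tested genes because WT had 9 and 7 reads and no share. Its pooled MD1 share was 46.9% (15 of 32 reads, Wilson 95% interval 30.9% to 63.6%), above the 10% line. Allelic signal was thus present in a gene that the comparison of groups did not use. No WT share was given to set it against.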

How the results depend on the processing

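The number of genes of the stretch that rose (32) was 29 to 30 with each library left out in turn, 30 with a minimum of 50 reads (of 40 genes), 29 with DESeq2, and 32 with TMM scaling or no minimum. Leaving a library out takes the spread from the other group and assumes that the lone library varies alike. With the replicate number as a replicate block it was 30, without Srpx2 (adjusted p 0.0666 in edgeR) and Morc4 (0.0957). The replicate numbers are not stated to pair samples. Same-numbered libraries deviated together with a correlation of 0.058 in allelic odds and 0.39 in read numbers over the 391 genes. On all of X, 281 of the 292 calls were also made with the block. The size of the adjusted p in edgeR depended on the setting as well. In the main fit it was 7.26e-102 for Morf4l2, 6.51e-64 for Cstf2 and 6.1e-55 for Cenpi. With a minimum of 50 reads it was 1.16e-16, 3.31e-15 and 2.8e-14. Of the 32 genes, 26 were called with every library left out in turn, and Srpx2, Drp2, Morc4, Prps1, Col4a6 and Pak3 were not. No other gene of the stretch gained or lost a call that way, and none fell under these settings. The difference in mean share was 12.2 to 13.4 points with 1 library left out, 14.7 with reads pooled, 13.7 with a minimum of 50 reads, and 11.5 with the left-out families counted in. Chosen after seeing the data, it was 12.2 without Morf4l2. At bounds of 5% and 20%, 21 and 14 genes (46.7% and 31.1%) reached the bound in MD1, beside 62.4% and 41.9% of all informative X genes. The median log2 ratio of total expression changed sign to -0.0063 without a minimum on FPKM (64 genes), a setting that adds genes near 0, and was 0.073 at a minimum of 5.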
